A study of Arabidopsis thaliana with 7 samples.

Results

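Ubiquitin-system genes that lie next to binding sites of the clock transcription factor CCA1 are described here, in seedlings of Arabidopsis thaliana. A gene was included when it was the nearest promoter's gene of a CCA1 peak and the authors' description of it contained F-box, RING, U-box or ubiquitin. Descriptions with kinase were dropped, which removed 1 gene, and the clock photoreceptor genes FKF1, ZTL and LKP2 were left out. The rule found 63 genes of the 1760 with a peak in either light regime. They carried 52 of the 1433 peaks in continuous light (LL) and 53 of the 1607 peaks in light-dark cycles (LD).

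The peaks come from chromatin immunoprecipitation followed by sequencing (ChIP-seq) with an antibody against GFP. All plants carried CCA1 fused to GFP under the CCA1 promoter in the WS-2 ecotype, and all were whole seedlings of 14 days raised in 12 h light and 12 h dark. They were harvested at zeitgeber time (ZT) 2, that is 2 h after dawn or subjective dawn, either in those cycles (LD, 2 libraries) or after transfer to continuous light (LL, 3 libraries). A library of ZT14 in LL and an input library were not analysed here. Each regime is a single list of peaks over its pooled libraries, so no value has a spread between replicates and no difference between the regimes was tested. The member peaks held 18 to 132 sequence tags in LL and 32 to 125 in LD, with medians of 25 and 43. Intervals on tags are exact 95% Poisson intervals and intervals on shares are 95% Wilson intervals. Both cover counting error only.

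Ubiquitin is a small protein that is attached to other proteins, often marking them for breakdown by the proteasome. It passes from an activating enzyme (E1) to a conjugating enzyme (E2) and then, with the help of a ligase (E3), to its target. RING and U-box proteins are ligases that bind the E2 directly, whereas an F-box protein is the subunit of an SCF ligase that picks the target. In plants these families are large, and they control hormone, light and clock proteins. CCA1 is a MYB-related protein that binds DNA around dawn and mostly represses the genes it binds.

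By the authors' descriptions, 55 of the 63 genes name a ligase or a ligase domain. There are 20 F-box genes, 14 RING genes, 10 genes described only as RING/U-box, 3 U-box genes and 8 genes named as a ligase without a domain. The other 8 genes encode no ligase by description, so the group is wider than ligases. They are 3 E2 genes (UBC2, UBC8 and UBC16), the polyubiquitin genes UBQ3 and UBQ10, the ubiquitin-like APG12B, a ubiquitin hydrolase gene and a UFD1 family gene. Of the 63 genes, 45 had a peak in LL, 50 in LD and 32 in both. These genes were chosen for having a peak: of the 1760 genes with one, 74.2% had it in LL and 82.7% in LD. Of all 37899 nuclear genes of the reference table, 3.38% had an LL peak, 3.77% an LD peak and 2.59% both. How many genes of each family the genome holds was not available, so no share of a family is given.

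The highest member peaks of LL belonged to AT2G16365 and AT5G10340, both described only as F-box protein, and the polyubiquitin gene UBQ3. Those of LD belonged to UBQ3, AT2G16365 and the ligase gene RMA1. The score that follows is the authors' peak score, which can be read only within a list. Its median over all peaks was 26 in LL and 48 in LD. The median over the member peaks was 24 in LL and 45 in LD, so as a group they were no higher than the lists. In whole seedlings, binding in fewer cells and weaker binding in each cell cannot be told apart. Of the member peaks, 12 of 52 in LL (23.1%, 13.7 to 36.1) and 13 of 53 in LD (24.5%, 14.9 to 37.6) stood at or above the upper 25% mark of all scores.

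**Figure D1:**
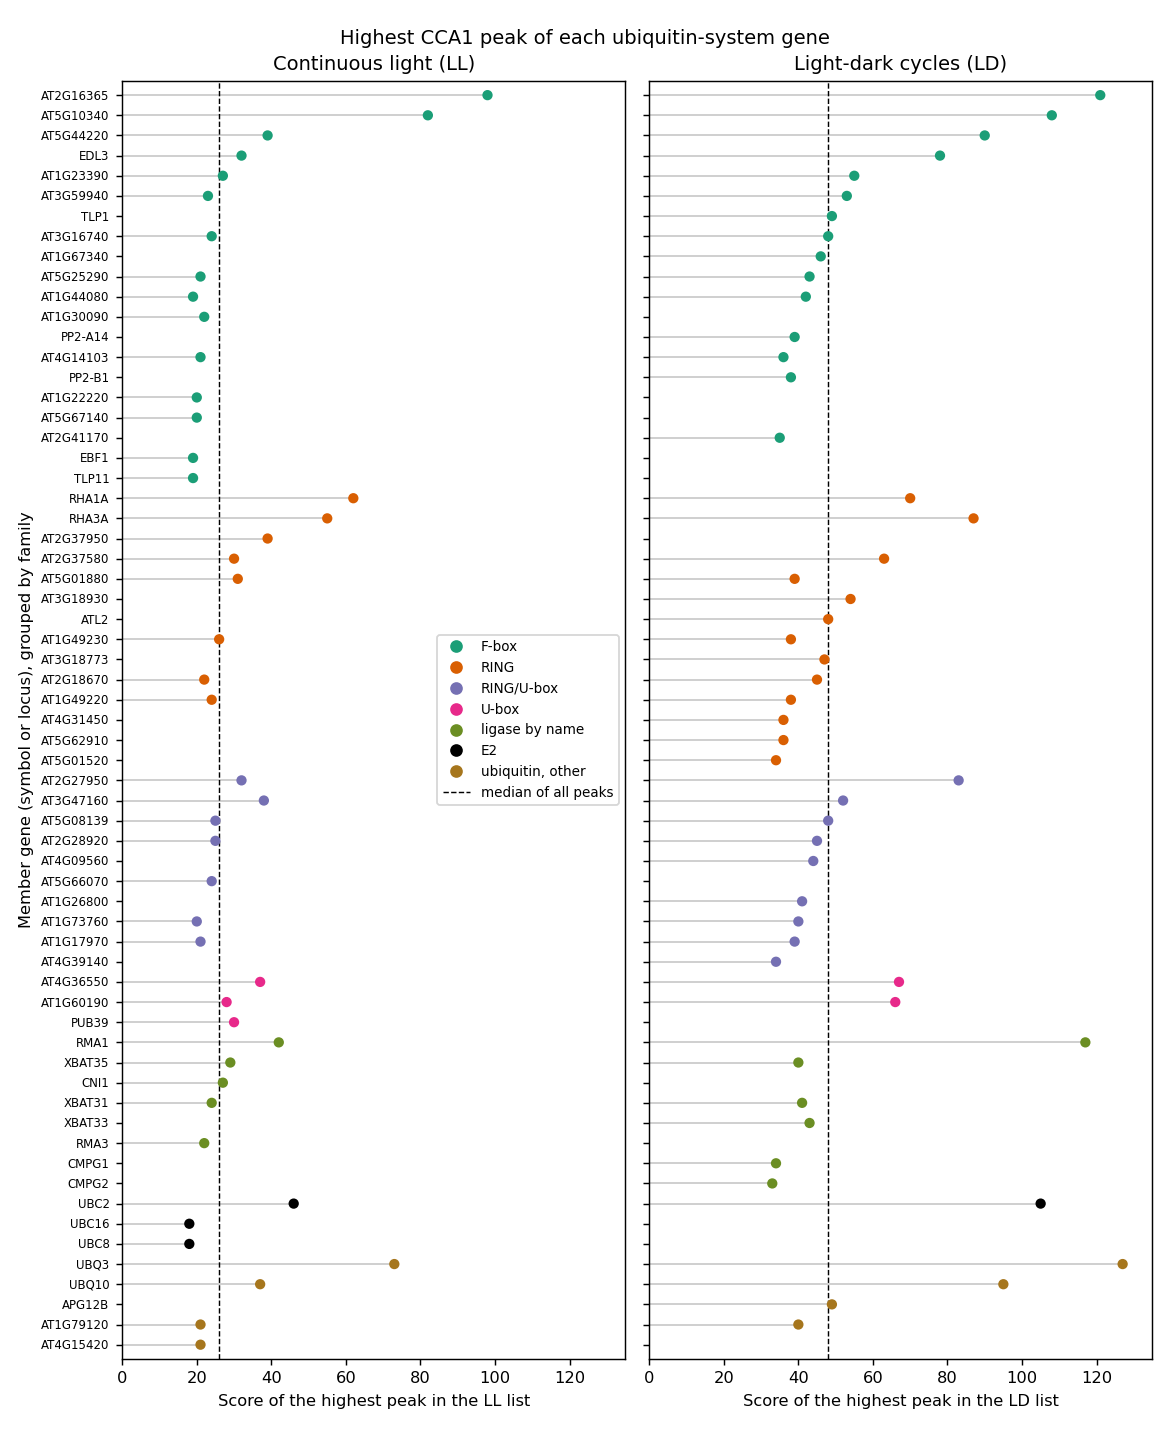
Score of the highest peak of each of the 63 genes in LL (left) and LD (right), with genes grouped by family and coloured by it. A gene without a point has no peak in that list, and the dashed lines mark the median of all peaks (26 in LL, 48 in LD). Some genes, among them AT2G16365, AT5G10340, UBQ3, RMA1 and UBC2, stand far above the line in LL or LD, and most members lie near or below it.

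The polyubiquitin genes among the members, UBQ3 and UBQ10, had a peak in both regimes, each in the upper 25% of the list by score. UBQ3 (AT5G03240) encodes a chain of ubiquitin units that is cut into free ubiquitin. Its LL peak, on chromosome 5 from 773396 to 773554, had a score of 73 and 72 tags (56.3 to 90.7), 26.3-fold over control. Its LD peak, from 773398 to 773522, had a score of 127 and 125 tags (104 to 149), 32.7-fold over control, and was the highest member peak of that list. Control tags, scaled by the authors to the precipitate, were 2.7 and 3.8. The centres lay 40 bp and 55 bp downstream of the transcription start site (TSS). UBQ10 (AT4G05320), a second polyubiquitin gene, had its peak in intron 1, 181 bp downstream of the TSS in LL and 190 bp downstream in LD. It held 39 tags (27.7 to 53.3) in LL and 94 (76.0 to 115) in LD, with scores of 37 and 95. The peak spanned 2718314 to 2718472 of chromosome 4 in LL, with 2.3 control tags and a fold of 17.3. In LD it spanned 2718340 to 2718464, with 4.3 control tags and a fold of 22.1. Both polyubiquitin genes were therefore marked at the very start of the transcribed region, and in both lists UBQ3 had the higher score. The hydrolase gene AT1G79120 had weaker peaks in an intron, 2974 bp and 2943 bp downstream (scores 21 and 40). The UFD1 family gene AT4G15420 had an LL peak alone (score 21, 59 bp upstream).

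Of the E2 genes, UBC2 (AT2G02760) had a peak in both lists, directly on its TSS. UBC2 acts in the attachment of a ubiquitin to histone H2B. The LL peak, on chromosome 2 from 773605 to 773763, had a score of 46 and 47 tags (34.5 to 62.5). The LD peak, from 773616 to 773740, had a score of 105 and 103 tags (84.1 to 125). Control tags were 1.9 and 3.8, and the folds over control were 25.3 and 26.9. UBC8 and UBC16 had a peak in LL alone, 84 bp and 18 bp upstream of the TSS, both with the lowest member score of that list, 18. The authors' annotation column places the UBC8 peak in the promoter of the adjacent gene AT5G41690.

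Among ligases named without a domain, RMA1 (AT4G03510) stood out. RMA1 is a ligase anchored in the membrane of the endoplasmic reticulum. Its LL peak, on chromosome 4 from 1559392 to 1559550, lay 43 bp upstream of the TSS with a score of 42 and 45 tags (32.8 to 60.2), 30.7-fold over control. Its LD peak, from 1559435 to 1559559, lay 69 bp upstream with a score of 117 and 114 tags (94.0 to 137), 53.6-fold over control. Control tags were low at this site, 1.5 and 2.1. Its relative RMA3 had a weak peak in LL alone (score 22, 113 bp upstream). XBAT35, which acts in the ethylene response of the apical hook, had peaks of score 29 and 40 at 35 bp and 39 bp downstream of the TSS.

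XBAT31 (AT2G28840), a ligase known to promote the breakdown of the clock protein ELF3 in warm conditions, carried peaks at both ends of the gene. The promoter peak lay 145 bp upstream of the TSS in LL (score 24, 25 tags) and 146 bp upstream in LD (score 41, 39 tags). A further peak at the end of the gene lay 2529 bp downstream in LL (score 24) and 2541 bp downstream in LD (score 40). Another LL peak 2986 bp downstream (score 18) overlapped no LD peak. XBAT33, CMPG1 and CMPG2 had a peak in LD alone, with scores of 43, 34 and 33. CMPG1 belongs to the early genes of the response to pathogen elicitors. Its peak lay 2544 bp upstream of the TSS, where the annotation column names the end of TMK1. CNI1 (ATL31), a ligase of the response to the carbon and nitrogen balance, had 2 peaks in LL alone. They lay 246 bp upstream of the TSS (score 24) and in the exon 1229 bp downstream (score 27).

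RING genes were led by a pair of small RING-H2 genes, RHA1A and RHA3A. RHA1A (AT4G11370) had its peak 558 bp upstream of the TSS in LL, on chromosome 4 from 6907037 to 6907195, with a score of 62 and 75 tags (59.0 to 94.0). In LD the peak lay 553 bp upstream, from 6907059 to 6907183, with a score of 70 and 64 tags (49.3 to 81.7). Control tags there were 3.2 in LL and 7.0 in LD, and the fold over control was 23.2 and 9.12. RHA3A (AT2G17450) carried its highest peak far upstream, at 2242 bp in LL (score 55, 60 tags) and 2238 bp in LD (score 87, 85 tags), in the intergenic category. It spanned 7579463 to 7579621 of chromosome 2 in LL, with 1.4 control tags and a fold of 43.8. In LD it spanned 7579476 to 7579600, with 3.0 control tags and a fold of 28.5. A second RHA3A peak 104 bp upstream of the TSS was called in LL alone (score 27, 26 tags), 2134 bp from the nearest LD peak. It held 3.8 control tags, more than at 91.7% of LL peaks, with a fold of 6.81.

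Most named RING members belong to the ATL and RHA families, which share a RING-H2 finger. Counting CNI1, which is described only as a ligase, they were 11. ATL33 (AT2G37580; scores 30 and 63), ATL74 (AT5G01880; 31 and 39) and ATL56 (AT2G18670; 22 and 45) had peaks in both lists. The annotation column places the LD peak of ATL33 in the promoter of SLT1. ATL10 (AT1G49220) and ATL78 (AT1G49230) lie on chromosome 1 with 1 gene between them and carried 4 LL and 3 LD peaks. At ATL78 there were peaks 393 bp and 1008 bp upstream of the TSS in LL (scores 26 and 23) and 381 bp and 969 bp upstream in LD (scores 38 and 35). At ATL10 the peaks lay 810 bp and 821 bp upstream (scores 24 and 38), and a further LL peak lay at the end of the gene (score 22). ATL65 (AT3G18930; score 54), ATL2 (score 48) and ATL77 (AT3G18773; score 47) had a peak in LD alone. ATL2 is induced early by the fungal wall component chitin. AT4G31450 and AT5G62910 had LD peaks of score 36 each, 171 bp upstream and 88 bp downstream. AIRP2 (AT5G01520), which takes part in abscisic acid signalling, had an LD peak of score 34.

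Genes described as RING/U-box had peaks in LL in 7 of 10 cases and in LD in 9, with 6 in both lists. AT2G27950 was the highest of them in LD, with a score of 83 and 82 tags (65.2 to 102) 206 bp upstream of the TSS. In LL it had a score of 32 and 32 tags (21.9 to 45.2) 215 bp upstream. The peak spanned 11904143 to 11904301 of chromosome 2 in LL and 11904151 to 11904275 in LD. Control tags were 2.5 and 4.7, and the folds 12.6 and 17.5. AT3G47160 had the highest LL score of this family, 38, with 38 tags 96 bp downstream of the TSS, and in LD a score of 52 with 52 tags 97 bp downstream. It spanned 17361943 to 17362101 of chromosome 3 in LL (2.3 control tags, fold 16.9) and 17361959 to 17362083 in LD (4.9 control tags, fold 10.6). The other shared genes of this family were weaker. AT5G08139 had scores of 25 and 48, AT2G28920 of 25 and 45 at about the same place downstream (2702 bp and 2708 bp), AT1G17970 of 21 and 39, and AT1G73760 of 20 and 40. AT4G09560 (44), AT1G26800 (41) and AT4G39140 (34) had a peak in LD alone. Of the 3 genes named as U-box, AT4G36550 (scores 37 and 67) and PUB19 (AT1G60190; 28 and 66) had peaks in both lists. PUB19 is a ligase of the drought and abscisic acid response, and its peak lay 11 bp upstream of the TSS in LL and 15 bp upstream in LD. PUB39 had a peak in LL alone (score 30). It held 4.9 control tags, more than at 96.7% of LL peaks.

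F-box genes were the largest family, with 15 genes in LL, 15 in LD and 10 in both. The F-box label of AT2G16365 rests on the authors' description alone. AT2G16365 had the highest member score in LL, 98, and the next to highest in LD, 121. Its LL peak spanned 7073954 to 7074112 of chromosome 2 and was centred 329 bp upstream of the TSS, with 130 tags (109 to 154), 73.8-fold over control. Its LD peak spanned 7074007 to 7074131, centred 293 bp upstream, with 114 tags (94.0 to 137), 41.2-fold over control. Control tags were 1.8 and 2.8. AT5G10340 was next in LL with a score of 82 and 132 tags (110 to 157), and had a score of 108 and 108 tags (88.6 to 130) in LD. Its peak lay on chromosome 5 from 3253124 to 3253282 in LL and from 3253140 to 3253264 in LD, 81 bp and 80 bp downstream of the TSS. This site had the most control tags of any member, 8.6 in LL and 14.0 in LD. These were above 98.7% of LL peaks and 98.8% of LD peaks, and the fold over control was 15.3 and 7.69. The part of the control signal in this peak was not tested.

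Other F-box genes had clear LD peaks at positions also called in LL. AT5G44220 had its peak at the end of the gene, 1125 bp downstream of the TSS in LL (score 39, 39 tags) and 1131 bp downstream in LD (score 90, 89 tags). It spanned 17811523 to 17811681 of chromosome 5 in LL (1.3 control tags, fold 30.7) and 17811546 to 17811670 in LD (1.9 control tags, fold 46.5). EDL3 (AT3G63060), a positive regulator of abscisic acid signalling, had a peak 269 bp upstream in LL (score 32, 32 tags) and 275 bp upstream in LD (score 78, 77 tags). It spanned 23301663 to 23301821 of chromosome 3 in LL (1.2 control tags, fold 27.3) and 23301686 to 23301810 in LD (1.3 control tags, fold 60.3). The annotation column places the EDL3 peak in the promoter of the adjacent AT3G63070. KMD4 (AT3G59940), which targets type-B response regulators of cytokinin signalling, had scores of 23 and 53, 712 bp and 724 bp upstream. Of the tubby-like members, TLP1 was found in LD alone, 1398 bp upstream with a score of 49, and TLP11 in LL alone, 820 bp upstream with a score of 19. The phloem-protein type members PP2-A14 (score 39) and PP2-B1 (score 38) had a peak in LD alone. The PP2-A14 peak held 7.0 control tags, more than at 94.3% of LD peaks, with a fold of 5.56. TLP7, PP2-A11, PP2-A12 and PP2-A13, relatives of these tubby-like and phloem-protein type members, had overlapping peaks in both lists. Their descriptions do not name the F-box, so they are not members. EBF1, the F-box gene that limits ethylene signalling through EIN3, had one of the lowest LL scores, 19, with 18 tags (10.7 to 28.5) 1210 bp upstream of the TSS. The F-box/LRR gene AT4G14103 had scores of 21 and 36, and its LD peak held 8.1 control tags with a fold of 4.08, the lowest fold of the member peaks in LD. AT5G25290 (21 and 43) and AT1G44080 (19 and 42) also had a peak in both lists. AUF2 (AT1G22220) and AT5G67140, with a score of 20 each, had a peak in LL alone, and AT2G41170 (score 35) in LD alone.

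Some members share a site with a neighbouring gene, so the binding cannot be given to a single gene. The annotation column names another gene for 6 of the 46 LL peaks that name one (13.0%, 6.12 to 25.7) and 8 of the 45 LD peaks (17.8%, 9.29 to 31.3). Over all peaks these shares were 17.0% and 16.2%. The gene HEB2 (AT3G16730) lies between ATL2 and the F-box gene AT3G16740. The LD peaks given to both of these are placed by the column at HEB2, in its promoter (5 bp upstream of AT3G16740) and at its end (1857 bp downstream of the ATL2 TSS). The F-box/kelch gene AT1G23390 had scores of 27 in LL and 55 in LD, at 1128 bp and 1130 bp upstream, where the column names the end of CAF2. When membership was taken from the annotation column, 36 genes had an LL peak and 35 an LD peak.

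Member peaks lay mostly just upstream of the TSS or on it. In LL 36 of 52 (69.2%, 55.7 to 80.1) and in LD 35 of 53 (66.0%, 52.6 to 77.3) were in the promoter-TSS category, against 59.4% and 59.0% of all peaks. Peaks at gene ends numbered 7 in each list, and intergenic peaks 6 and 8. Counted in either direction, the median member peak centre lay 332.5 bp from the TSS in LL (order-statistic interval 181 to 712) and 381 bp from it in LD (190 to 969). Over all peaks it was 566 bp (485 to 630) and 538 bp (482 to 611). Within 500 bp of the TSS lay 61.5% of member LL peaks (48.0 to 73.5), beside 48.0% of all LL peaks. In LD it was 54.7% (41.5 to 67.3), beside 48.3%. The members' intervals for the median contain the median of all peaks in both lists, and a difference in position was not tested. Among the families, the E2 peaks lay closest to the TSS, with a median of 18 bp over only 3 LL peaks. The F-box peaks had the largest medians, 592 bp over 16 LL peaks and 927 bp over 16 LD peaks. The next largest were near these: 558 bp over 11 RING peaks in LL, and 855.5 bp over 4 peaks of the remaining ubiquitin genes in LD. The order of the families was not tested. The 2 farthest upstream peaks belonged to the F-box gene AT1G67340, 3682 bp and 4851 bp from its TSS, both in LD alone (scores 46 and 33).

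**Figure D2:**
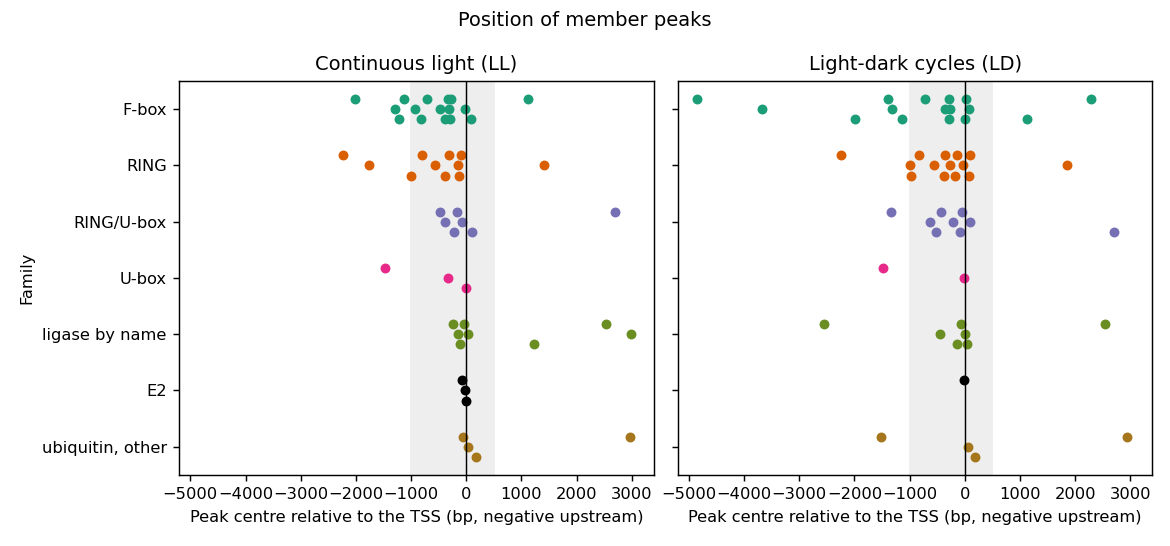
Distance of each member peak centre from the TSS of its gene in bp, negative upstream, by family, for LL (left, 52 peaks) and LD (right, 53 peaks). The shaded band runs from 1000 bp upstream to 500 bp downstream, points are set apart vertically only for legibility, and most peaks fall within the band.

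The series set binding in continuous light beside binding in the diel cycle. Of the 63 genes, 32 had a peak in both lists (50.8%, 38.8 to 62.7), beside 56.9% of all genes with a peak. Of the member peaks, 34 in LL (65.4%, 51.8 to 76.8) shared 1 bp or more with an LD peak, beside 74.6% of all LL peaks. In LD 34 (64.2%, 50.7 to 75.7) overlapped an LL peak, beside 66.5% of all LD peaks. The interval of the members contains the value of all peaks in both lists, so members and peaks at large could not be told apart in this. By family, both lists held 10 of 20 F-box genes, 7 of 14 RING genes, 6 of 10 RING/U-box genes, 2 of 3 U-box genes, 3 of 8 ligases without a named domain and 1 of 3 E2 genes. They also held 3 of the 5 remaining genes, UBQ3, UBQ10 and the hydrolase gene AT1G79120.

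Each gene found in both lists had at least 1 site called in both. All 32 had at least 1 pair of overlapping peaks, and over the 34 pairs the centres lay a median of 10 bp apart. In 33 of the 34 the centres were within 50 bp, and the exception was ATL56 with 89 bp. Overlapping peaks have close centres by construction. Over all 1069 overlapping pairs the median was 15 bp (13 to 16) and the 90% point 48 bp, so the closeness is not particular to the members. The share of all genes of both lists with an overlapping pair is not given here. Further LL peaks at RHA3A, ATL10 and XBAT31 overlapped no LD peak.

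Sharing was most frequent in the highest score class and least in the lowest, in the members as in the lists. The peaks of each list were ranked by score and cut into 4 classes. In the highest class 11 of 12 member LL peaks and 13 of 13 member LD peaks overlapped a peak of the other list, beside 97.8% and 96.3% of all peaks. In the lowest class 3 of 11 (27.3%, 9.75 to 56.6) and 4 of 13 (30.8%, 12.7 to 57.6) did so, beside 44.3% and 36.3%. In the classes between, 7 of 10 and 13 of 19 member LL peaks were shared (86.0% and 70.4% of all). In LD 5 of 9 and 12 of 18 were (79.1% and 54.5% of all), so the members did not fall steadily from class to class there. Sharing needs a call in both lists, and the part of the calling threshold in this gradient was not tested.

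**Figure D3:**
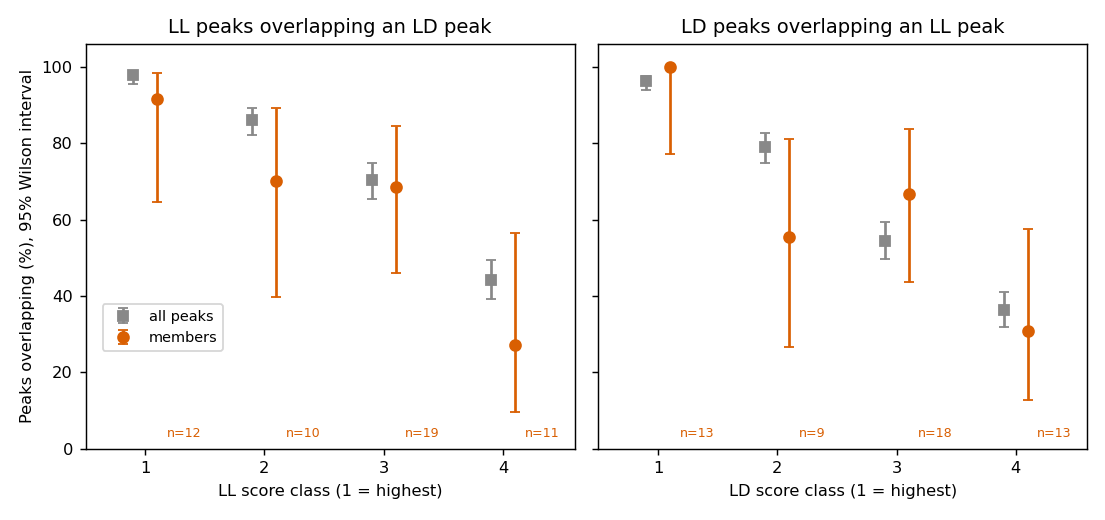
Percent of peaks that overlap a peak of the other list, by score class (1 is the highest), for members (circles) and all peaks (squares), with 95% Wilson intervals and the number of member peaks. In LL the members go from 91.7% in the highest class to 27.3% in the lowest, and in LD from 100% to 30.8%.

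The genes of a single list mostly had low scores, and over all peaks those without an overlap were also more frequent at low scores. Over all LL peaks the share that overlapped an LD peak fell from 97.8% in the highest score class to 44.3% in the lowest. For all LD peaks and overlap with an LL peak the shares were 96.3% and 36.3%. In LL alone there were 13 genes with 15 peaks, of which 12 stood in the lower 50% of the list by score. In LD alone there were 18 genes with 19 peaks, of which 15 stood there. The matching share over all peaks without an overlap is not given here, so these counts cannot be read as particular to the members. None of these peaks overlapped a peak of the other list under another gene's name, and the nearest one lay at least 3369 bp away from the LL peaks and 4721 bp from the LD peaks. The highest genes of LL alone were AT2G37950, a RING/FYVE/PHD gene (score 39, rank 297), then PUB39 (30), CNI1 (27) and AT5G66070 (24). AT1G30090 and RMA3 followed with 22 each, and AT1G30090 had another LL peak of score 18. The AT2G37950 peak spanned 15885659 to 15885817 of chromosome 2, 1759 bp upstream of the TSS and at the end of AT2G37960. It held 42 tags (30.3 to 56.8) and 3.3 control tags, 12.6-fold over control, and the nearest LD peak lay 110350 bp away. In LD alone they were ATL65 (score 54, rank 597), APG12B and TLP1 (49 each), ATL2 (48) and ATL77 (47). APG12B encodes a ubiquitin-like protein of autophagy. Whether these sites were bound below the calling threshold in the other regime was not tested. AT2G37950 stood in the highest LL score class, in which 350 of all 358 peaks overlapped an LD peak.

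The tags of the paired peaks were set against each other at shared sites. Over all 1069 overlapping pairs the LD peak held a median of 1.74 times the tags of the LL peak (10% to 90% range 1.15 to 2.60). Over the 34 member pairs the median was 1.83 (interval 1.50 to 2.10) and the 10% to 90% range 1.26 to 2.41, no wider than that of all pairs. The ratio is not scaled for the total number of tags, which is not stated. Nor is it scaled for the peak width, which was 158 bp for LL peaks and 124 bp for LD peaks. Only its spread around the median can be read, and that spread is cut off from below at low LL counts. Every LD peak held at least 31 tags and every LL peak at least 17, so a pair with few LL tags cannot have a low ratio. The members with the highest ratios were AT2G27950 (32 and 82 tags, ratio 2.56, exact interval 1.68 to 3.99) and RMA1 (45 and 114 tags, 2.53, 1.78 to 3.66). KMD4 followed with 21 and 52 tags, a ratio of 2.48 (1.47 to 4.33). Of the members, RMA1 alone had an interval above the median of all pairs (2.94%, 0.521 to 14.9), as had 72 of all 1069 pairs (6.74%), so the count shows nothing particular to the members.

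The 3 lowest ratios were those of AT5G10340 (132 and 108 tags, ratio 0.818, 0.629 to 1.06), RHA1A (75 and 64, ratio 0.853, 0.602 to 1.21) and AT2G16365 (130 and 114, ratio 0.877, 0.676 to 1.14). Per bp of peak width these ratios became 1.04, 1.09 and 1.12, so it cannot be said in which regime they were bound more. Intervals below the median of all pairs were found at these 3 members (8.82%, 3.05 to 23.0) and at 115 of all 1069 pairs (10.8%). The ratio fell with the LL tag count over all pairs. It had a median of 1.95 over the 515 pairs with under 30 LL tags and 1.59 over 414 pairs with 30 to under 60. It was 1.34 over 98 pairs with 60 to under 100 and 1.07 over 42 pairs with 100 or more. In that last class, which holds AT5G10340 and AT2G16365, the 10% to 90% range was 0.860 to 1.50. In the class of RHA1A it was 1.03 to 1.68. These classes are cut on a count that is also in the ratio, which by itself makes the ratio fall. With at least 31 tags in every LD peak, no pair with under 30 LL tags could hold fewer LD than LL tags. The lowest ratio in that class was 1.10.

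**Figure D4:**
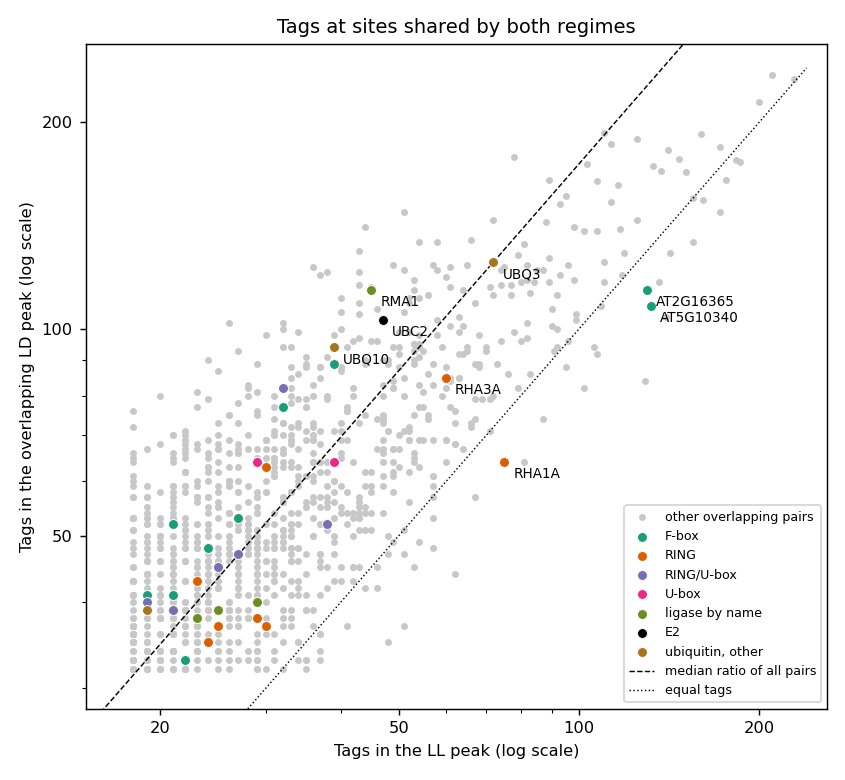
Tags in each LL peak against tags in the overlapping LD peak, on log axes, for the 34 member pairs (coloured by family) and the other overlapping pairs (grey). The dashed line is the median ratio of all pairs (1.74) and the dotted line marks equal tags. AT5G10340, AT2G16365 and RHA1A lie below the dotted line, RMA1 and UBC2 above the dashed one.

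Of 46 genes of the ubiquitin system with well-known roles, 1 had an LL peak (2.17%, 0.385 to 11.3) and 1 an LD peak, beside 3.38% and 3.77% of all nuclear genes. The LL peak was that of EBF1. The LD peak lay 1973 bp upstream of ASK1 (SKP1, AT1G75950), the subunit that joins F-box proteins to the cullin, with a score of 67. The annotation column places this peak at a gene end and does not name ASK1. By that column 0 of the 46 genes had a peak in LL or LD. The list included the E1 genes UBA1 and UBA2, cullins with their partners, and the COP1, SPA and DET1 genes of light signalling. It also held the hormone F-box genes TIR1, AFB1 to AFB3, COI1, SLY1 and MAX2, and further ligases such as HOS1, KEG and PUB22. The clock F-box genes FKF1, ZTL and LKP2 were left out of it, and 2 of them had an LL peak and 1 an LD peak. Apart from EBF1 and ASK1, none of the 46 had a peak in either list. The count is near that of all genes and says nothing particular about the pathway.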

How the data were processed

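The submitters' processing notes name CASAVA 1.8, Trimmomatic 0.33, HOMER 4.7 and Bowtie2 2.2.1, and the build TAIR10, on which all coordinates are. Per the file headers, the deposited lists are HOMER peaks of combined libraries, cut to a top set by irreproducible discovery rate. For each peak the authors deposited a count of total tags, a control signal (control tags scaled to the precipitate), a score and a fold ratio over control, all used here. The distance to the TSS, the gene and the GC fraction were given by annotatePeaks.pl, per the file headers. The library that served as control is not stated in the sources used here.

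Peak and annotation tables were joined by peak identifier in Python 3.11.15 with pandas 2.3.3 and SciPy 1.17.1. Peaks overlapped when they shared at least 1 bp. The overlap step was tested on simulated intervals. Tag ratios carry exact binomial intervals. Gene symbols were looked up in NCBI RefSeq's table for TAIR10.1, without its coordinates. All 63 members and 1726 of the 1760 nearest genes matched it. No test was made. The members and the list of 46 genes were chosen with earlier results of these data known. Given with position, score, tags, control tags, fold and distance were the 10 members with the highest score of each list; scores were given for the 5 highest of a single list, for genes with several peaks and for listed pathway genes. Other named genes were chosen after their values were seen, as were the tag ratio and its classes. Planned counts of promoter motifs and of whole families were not run, since no sequence or family table was used here.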

Additional observations from a re-analysis of the deposited data

How the results depend on the processing

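Among the upper 50% of each list by score, 22 members had an LL peak, 23 an LD peak and 16 both. The median LD to LL tag ratio over member pairs was 2.33 per bp of peak width, a setting chosen after the data were seen. The other 29 recomputed values moved within 1.5 times for counts of genes, or within the interval of the value as reported. They cover equal list lengths, a window around the TSS that ran from 1000 bp upstream to 500 bp into the gene, the gene of the annotation column, descriptions with F-box, RING or U-box only, an overlap of 50%, centres within 500 bp, and the highest peak of each gene. For the tag ratio they cover the score in place of tags, the stricter overlap, and the pairs left without the upper 5% by LL control tags. The score setting is no check on the tag ratio, since scores can be read only within a list. Promoter motifs were not counted, since no sequence was used here. No paired analysis was possible because each regime is a single pooled list. For the same reason no replicate could be left out. A site near the calling threshold in a list can be missed in the other. The part of sequencing depth in the counts was not tested.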

Other observations

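Further genes of protein-tagging pathways lay next to CCA1 peaks but fall outside the rule. A search of descriptions and aliases for BTB, cullin, SKP1, proteasome, SUMO and E3 ligase terms, made after the data were seen, found 11 genes, 9 in LL and 10 in LD, with 8 in both. They were found for having a peak: of all 1760 genes with one, 74.2% had it in LL, 82.7% in LD and 56.9% in both. Over so few genes the counts say nothing particular about these pathways. The search was not complete. TLP7, PP2-A11, PP2-A12 and PP2-A13, given above, and PUB9 (32 LL and 94 LD tags) are not among the 11. BTB proteins can serve as the target-binding subunit of cullin 3 ligases. BT2 (AT3G48360), a BTB and TAZ domain gene, had peaks in an intron and in its promoter. The intron peak held 64 tags (exact 95% Poisson interval 49.3 to 81.7) in LL and 114 (94.0 to 137) in LD, with scores of 62 and 116. The promoter peak lay 75 bp upstream of the TSS in LL (score 22) and 62 bp upstream in LD (score 69). Its relatives BT4 (scores 53 and 70) and BT1 (20 and 49) also had peaks in both lists, on the TSS of BT4 and at the end of BT1. BTS, which encodes the iron-response ligase BRUTUS, had a peak 2540 bp upstream in LL (score 25) and 2545 bp upstream in LD (score 41). The SUMO-conjugating enzyme gene SCE1 had a peak in each list, but at different sites, 64 bp downstream of the TSS in LL and 318 bp upstream in LD. The proteasome subunit gene RPN12b had an LD peak alone (score 40).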
